A study of Mus musculus with 12 samples.

Results

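The genes of glucose uptake, glycolysis, lactate handling, mitochondrial pyruvate oxidation and the pentose phosphate pathway were followed in cultured mouse glioma-model cells. The list held 39 genes named by symbol, of which 34 were measured, each by 1 transcript cluster, among 19505 genes and 22206 transcript clusters on the array. The other 5 (Gpi1, Eno1, Mpc2, G6pdx and Tkt) were not analysed here. The cells were S100β-v-erbB/p53-/- cells of the line labelled TSC1, on the FVB-NJ strain background. They carry the v-erbB oncogene, a constitutively active viral form of the epidermal growth factor receptor, under the S100β promoter, and they lack p53, and both alterations were present in every group.

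Clarion S arrays were run on 4 groups of 3 arrays each. The first was cultured in hypoxia with brefeldin A (BFA), a fungal compound that blocks the exchange factors of ARF GTPases and so stops transport from the endoplasmic reticulum to the Golgi. The second was cultured in hypoxia with 1 µM EHT-1864, an inhibitor of Rac GTPases. The remaining groups received the solvent DMSO, one in hypoxia and one in normoxia. Exposure lasted 16 h in medium with B27 supplement. For BFA, the protocol text states 1 µM whereas the title of the series states 0.1 µM. Which was used could not be settled, so no result is tied to a BFA dose. The labels describe 3 independent cultures. Whether equally numbered arrays came from one culture is not stated, and the p-values measure only the spread between these arrays. Taken as labelled, that is a spread between cultures of this line, and not between lines or animals.

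Glycolysis turns glucose into pyruvate in the cytosol. Glucose enters through facilitative transporters, hexokinases trap it as glucose 6-phosphate, phosphofructokinase commits it to breakdown, and aldolase, triosephosphate isomerase, glyceraldehyde phosphate dehydrogenase, phosphoglycerate kinase, phosphoglycerate mutase, enolase and pyruvate kinase complete the chain. Pyruvate is either reduced to lactate and exported with a proton or carried into mitochondria and oxidised by the pyruvate dehydrogenase complex. When oxygen is scarce, the transcription factor HIF-1 binds hypoxia response elements at many of these genes, and the shift of gliomas towards lactate production is one of the best known traits of these tumours. The pentose phosphate pathway branches off at glucose 6-phosphate and supplies NADPH and ribose.

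Values were log2 signals after RMA, and a difference of 1 on this scale is a doubling of signal. Differences are given ± the standard error of the linear fit, and 95% intervals are not adjusted for the number of clusters. Signals of different clusters were not set against each other, because probe sets differ in their response. The floor of an array, used here as the limit of signal over background, was the 95th percentile of its neg control probes. It averaged 6.49 on the BFA arrays, 6.01 on the EHT-1864 arrays, 5.61 on the hypoxia DMSO arrays and 5.61 on the normoxia DMSO arrays. The SD of all clusters on an array averaged 2.28, 2.41, 2.51 and 2.48 in the same order of groups, so arrays of both compounds had a narrower range of values and a higher floor than both DMSO groups. Hybridization control probes averaged 10.93, 10.25, 9.76 and 9.85 in that order. The share of clusters below the floor averaged 65.2%, 57.6%, 51.7% and 52.1%. These differences between arrays go with the compounds and cannot be told apart from their effects, and their cause was not tested. Trp53 was not analysed here, so the p53-/- label was not checked. Of 7 measured markers of oligodendrocyte progenitor and glioma cells, 7 were above the floor on at least 1 array, and of 30 markers of 5 other cell types (neurons, astrocytes, endothelium, microglia or macrophages, and pericytes or fibroblasts), 22 were below the floor on all 12 arrays.

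Among the 34 measured genes of glucose metabolism, 22 were above the floor on all 12 arrays and 29 on all arrays of at least 1 group. Hkdc1 (a hexokinase-like enzyme), Pgam2 (the muscle phosphoglycerate mutase), Ldhc (the testis lactate dehydrogenase) and Slc2a4 (the insulin-responsive transporter GLUT4) were below the floor on all 12 arrays. Slc16a7, a monocarboxylate transporter with high affinity for pyruvate, passed the floor on 2 EHT-1864 arrays and on no array of the other groups.

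Promoter sequences are shown for 8 of the genes, because 16 of the 34 rose together in hypoxia. The core of a hypoxia response element was searched as ACGTG and as GCGTG on both strands, in windows of 300 bases from 250 before to 50 after each annotated start (RefSeq, build GRCm38.p6). Windows were found for 31 of the 34 genes. Capitals mark the cores as they read on the strand of the gene, so that CACGT and CACGC are cores of the other strand. An ACGTG core can lie inside the E-box CACGTG, which holds it on both strands. The windows of 6 genes that rose in hypoxia come first and those of Ldhb and Taldo1, which did not, come after them.
Slc2a1, chr4:119108495-119108794, plus strand: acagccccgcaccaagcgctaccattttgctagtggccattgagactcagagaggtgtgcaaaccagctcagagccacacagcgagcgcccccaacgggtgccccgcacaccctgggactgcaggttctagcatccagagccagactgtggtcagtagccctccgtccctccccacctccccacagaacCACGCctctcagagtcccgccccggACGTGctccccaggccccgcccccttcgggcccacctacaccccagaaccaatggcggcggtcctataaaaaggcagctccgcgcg
Pfkl, chr10:78009758-78010057, minus strand: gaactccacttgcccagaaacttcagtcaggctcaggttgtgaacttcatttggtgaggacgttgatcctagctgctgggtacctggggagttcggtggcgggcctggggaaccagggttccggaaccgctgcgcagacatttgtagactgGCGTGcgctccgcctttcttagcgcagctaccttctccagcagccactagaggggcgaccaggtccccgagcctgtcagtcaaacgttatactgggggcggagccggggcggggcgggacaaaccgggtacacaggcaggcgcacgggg
Tpi1, chr6:124814109-124814408, minus strand: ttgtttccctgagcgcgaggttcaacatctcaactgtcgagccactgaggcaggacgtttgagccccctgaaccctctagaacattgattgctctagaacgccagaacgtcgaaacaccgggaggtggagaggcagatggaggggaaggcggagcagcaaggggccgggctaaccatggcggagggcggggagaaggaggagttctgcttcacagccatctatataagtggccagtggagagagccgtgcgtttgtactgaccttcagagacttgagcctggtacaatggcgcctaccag
Pgk1, chrX:106186850-106187149, plus strand: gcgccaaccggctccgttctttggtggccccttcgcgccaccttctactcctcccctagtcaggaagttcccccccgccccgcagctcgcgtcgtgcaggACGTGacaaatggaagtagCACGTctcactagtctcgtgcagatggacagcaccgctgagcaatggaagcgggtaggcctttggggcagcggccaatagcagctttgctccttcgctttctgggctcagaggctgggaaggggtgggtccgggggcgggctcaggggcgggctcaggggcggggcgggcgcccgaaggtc
Ldha, chr7:46845554-46845853, plus strand: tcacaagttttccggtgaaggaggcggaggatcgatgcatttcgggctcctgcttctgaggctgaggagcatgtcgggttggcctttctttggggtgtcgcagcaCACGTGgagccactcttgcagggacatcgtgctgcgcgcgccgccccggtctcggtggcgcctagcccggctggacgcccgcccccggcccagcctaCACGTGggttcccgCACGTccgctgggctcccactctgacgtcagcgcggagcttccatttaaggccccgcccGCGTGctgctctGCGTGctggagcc
Slc16a3, chr11:120948817-120949116, plus strand: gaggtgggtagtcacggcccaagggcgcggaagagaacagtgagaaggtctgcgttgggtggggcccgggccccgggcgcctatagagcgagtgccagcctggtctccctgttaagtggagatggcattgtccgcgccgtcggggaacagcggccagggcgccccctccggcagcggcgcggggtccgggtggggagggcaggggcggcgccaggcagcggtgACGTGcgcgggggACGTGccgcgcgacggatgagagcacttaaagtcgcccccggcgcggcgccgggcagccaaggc
Ldhb, chr6:142507908-142508207, minus strand: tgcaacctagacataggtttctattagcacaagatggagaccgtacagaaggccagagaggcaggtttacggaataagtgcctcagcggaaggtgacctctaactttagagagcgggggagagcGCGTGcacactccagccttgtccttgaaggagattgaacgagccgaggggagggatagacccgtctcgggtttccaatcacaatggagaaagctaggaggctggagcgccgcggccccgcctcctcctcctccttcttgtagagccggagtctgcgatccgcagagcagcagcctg
Taldo1, chr7:141391910-141392209, plus strand: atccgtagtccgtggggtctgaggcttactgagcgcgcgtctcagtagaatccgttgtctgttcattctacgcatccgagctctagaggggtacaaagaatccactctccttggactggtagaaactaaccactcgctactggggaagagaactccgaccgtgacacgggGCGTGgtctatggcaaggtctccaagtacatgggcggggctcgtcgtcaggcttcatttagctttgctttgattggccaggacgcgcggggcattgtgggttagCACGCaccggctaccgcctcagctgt

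In the window of Slc16a3, the lactate exporter MCT4, the ACGTG matches were centred at -25 and -12 bases from the start. The Ldha window, the one of its 2 with more matches, held 5 ACGTG matches on both strands, 4 of them in 2 copies of CACGTG, and 2 further GCGTG matches. Pgk1 held 2 ACGTG matches and Slc2a1 held 1 match of each core. Pfkl held 1 GCGTG and Tpi1 held neither core in its window, although both were among the genes with the largest rises. Ldhb and Taldo1 held only GCGTG.

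Counted by gene, ACGTG lay in a window of 12 of the 15 genes that rose in hypoxia and had a window, with the exceptions of Eno2, Pfkl and Tpi1. It lay in a window of 2 of the 16 genes that did not pass the test (12.5%), Pdhb and Slc16a1, and of 21.8% of the 27025 genes of the RefSeq promoter table. With either core, the counts were 13 of 15 and 12 of 16, and the share of all genes was 46.7%. Genes that rose had 24 windows for 15 genes and the others 20 windows for 16 genes, and the median GC content of the windows was 60.2% for the genes that rose, 57.2% for the others and 52.7% for the whole promoter table. These shares describe letters in a window and were not tested.

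**Figure D1:**
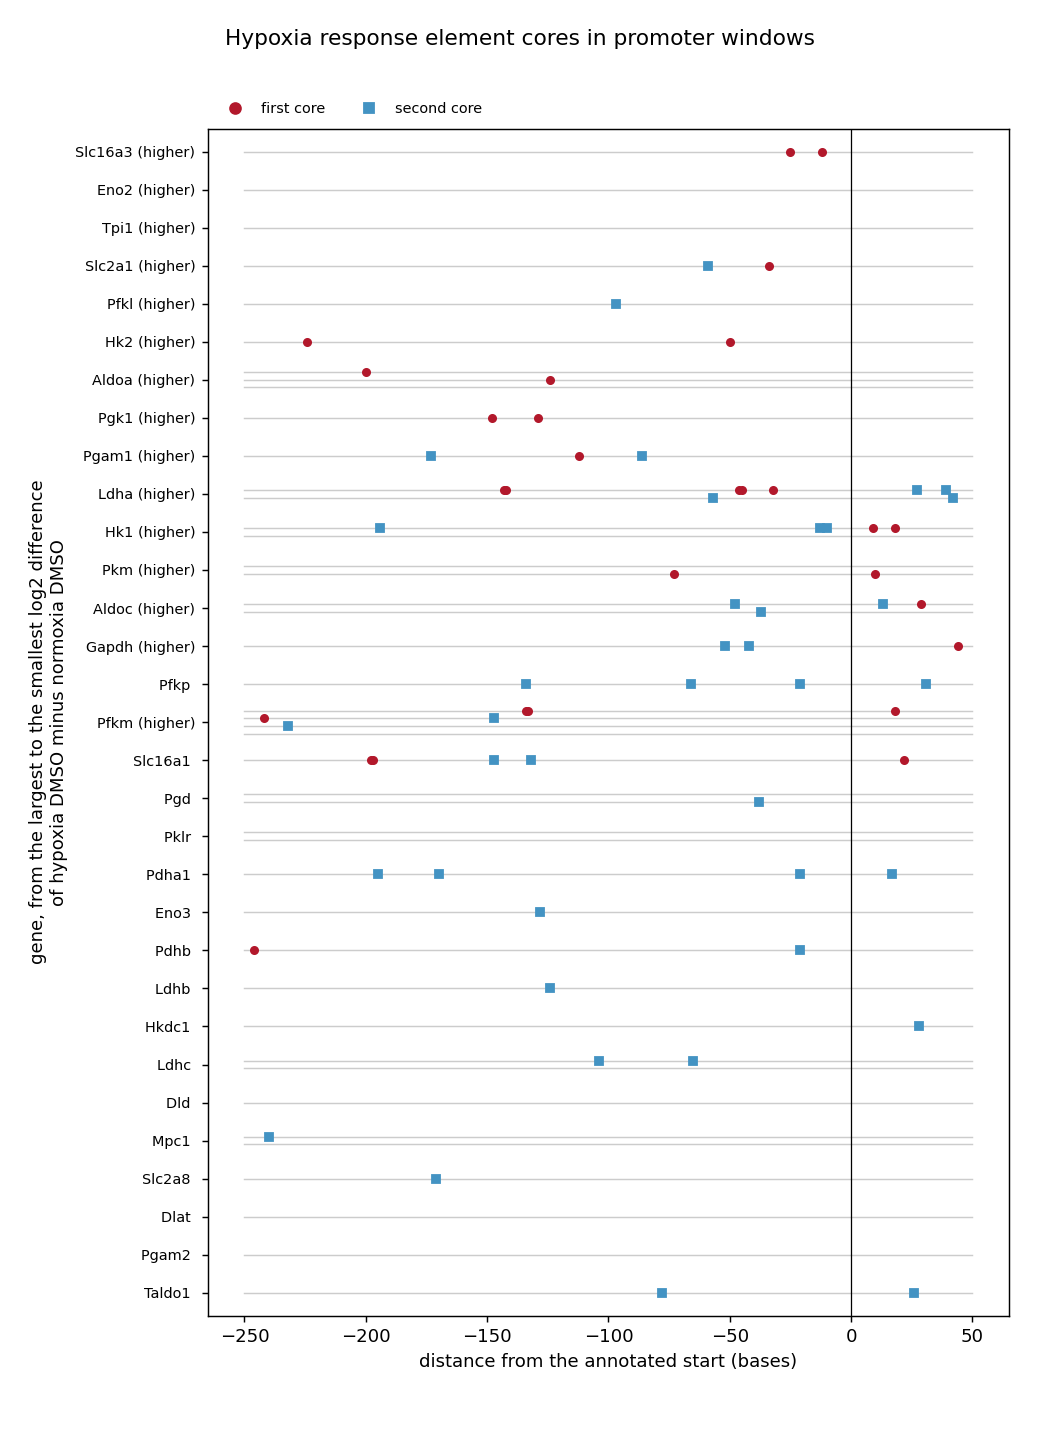
Positions of the first core (ACGTG on either strand, circles) and the second core (GCGTG, squares) along each promoter window, in bases from the annotated start (vertical line). Each grey line is 1 window, and genes run from the largest to the smallest log2 difference of hypoxia DMSO minus normoxia DMSO, with those that passed the test as higher marked in brackets. Circles lie at 12 of the 15 genes marked higher and at 2 of the 16 others.

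Hypoxia with DMSO was first set against normoxia with DMSO, which asks how low oxygen alone changed these genes. In all, 16 of the 34 genes rose, 0 fell and 18 did not pass the test. The rises covered glucose uptake (Slc2a1, Slc2a3), hexokinases (Hk1, Hk2), phosphofructokinases (Pfkl, Pfkm), 8 of the 11 genes from aldolase to pyruvate kinase, and the lactate step (Ldha, Slc16a3). None of the 5 genes of mitochondrial pyruvate use and neither of the 2 pentose phosphate genes passed the test. Over all clusters, 2.11% were called higher and 0.563% lower in this comparison. The median log2 difference was 0.41 over the 34 genes and -0.03 over all clusters. After the arrays were scaled to a common SD, 16 of the 34 genes were again higher and 0 lower, while the calls over all clusters were 358 higher and 162 lower, against 468 and 125 as reported. Of 22 alternative settings tried, 2 kept only clusters at log2 6 or more, or above the floor, on at least 3 arrays. Taldo1 was called lower in 4 of the 22 (both of these filters, a trended and robust variance, and array weights), with adjusted p of 0.0226 to 0.0333. With these filters the calls over all clusters were 780 higher and 484 lower (log2 6) and 790 and 457 (the floor).

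At the entry of glucose, Slc2a3 (GLUT3, the high-affinity transporter best known from neurons) measured 9.34, 9.11 and 9.23 in hypoxia DMSO, against 5.67, 5.68 and 5.67 in normoxia DMSO. Its normoxia arrays lay just above the floor and no hypoxia array came near them. The difference of 3.56 ± 0.18 (adjusted p = 1.36e-07) corresponds to 11.8-fold more signal. Slc2a1 (GLUT1, the widely expressed transporter) measured 11.71, 11.17 and 11.30 in hypoxia DMSO and 9.15, 9.07 and 8.96 in normoxia DMSO. The groups did not overlap and Slc2a1 rose by 2.34 ± 0.14 (adjusted p = 5.22e-07). Slc2a8, an intracellular transporter, was the only other member of this group above the floor, and it differed by -0.21 ± 0.16 (adjusted p = 0.59), with overlapping arrays.

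Both hexokinases above the floor rose, by unequal amounts. Hk2, the inducible isoform of growing tumours and muscle, measured 8.92, 8.24 and 8.56 in hypoxia DMSO and 6.55, 6.37 and 6.25 in normoxia DMSO. Hk1, the housekeeping isoform of brain, measured 10.02, 9.82 and 9.81 in hypoxia DMSO and 8.88, 8.88 and 8.96 in normoxia DMSO. Neither gene's groups overlapped, and the rises were 2.18 ± 0.21 (adjusted p = 3.46e-05) for Hk2 and 0.98 ± 0.14 (adjusted p = 0.00155) for Hk1.

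Phosphofructokinase exists as liver (Pfkl), muscle (Pfkm) and platelet (Pfkp) subunits that form mixed tetramers. Pfkl measured 10.79, 10.55 and 10.66 in hypoxia DMSO and 8.40, 8.32 and 8.43 in normoxia DMSO, and it rose by 2.28 ± 0.13 (adjusted p = 2.68e-07), or 4.87-fold. Pfkm measured 9.47, 9.48 and 9.43 in hypoxia DMSO and 8.96, 8.99 and 8.81 in normoxia DMSO. Its arrays did not overlap and the rise was 0.54 ± 0.11 (adjusted p = 0.0209), but the call was lost when any 1 of these 6 arrays was left out, with adjusted p up to 0.119. Pfkp measured 8.57, 8.63 and 8.77 in hypoxia DMSO and 8.07, 8.17 and 7.99 in normoxia DMSO, and its difference of 0.58 ± 0.21 (adjusted p = 0.185) did not pass the test although the arrays did not overlap. Pfkp was called higher in 3 of 22 alternatives, with adjusted p of 0.017 to 0.043. These were array weights, a fit of only the 2 groups compared and leaving out BFA array 1.

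Of the 11 genes from aldolase to pyruvate kinase, 8 rose. Eno2, the neuronal enolase, was below the floor on all 3 normoxia DMSO arrays and measured 7.01, 7.19 and 7.16 in hypoxia DMSO, at least 2.85-fold higher (adjusted p = 6.58e-06). Bounds of this kind compare the brighter group's mean with the floor of the dim arrays, or with the dim cluster's own value where that is higher. Tpi1, the isomerase of the triose phosphates, measured 11.28, 11.51 and 11.52 in hypoxia DMSO and 9.03, 9.03 and 8.99 in normoxia DMSO. It rose by 2.41 ± 0.15 (adjusted p = 1.01e-06), or 5.33-fold, the largest rise among the genes of this segment that were above the floor in both groups.

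Aldoa, the aldolase of muscle and most growing cells, measured 12.51, 12.46 and 12.46 in hypoxia DMSO and 10.59, 10.67 and 10.63 in normoxia DMSO and rose by 1.84 ± 0.12 (adjusted p = 1.2e-06). Aldoc, the aldolase of brain and astrocytes, measured 12.45, 12.41 and 12.42 in hypoxia DMSO and 11.47, 11.63 and 11.55 in normoxia DMSO. It rose by 0.87 ± 0.13 (adjusted p = 0.00267). Pgk1, which makes the first ATP of the pathway, measured 11.93, 12.12 and 12.09 in hypoxia DMSO and 10.67, 10.63 and 10.55 in normoxia DMSO, and Pgam1, the next enzyme, 11.15, 11.12 and 11.16 in hypoxia DMSO and 9.72, 9.81 and 9.73 in normoxia DMSO. The groups of these 4 genes did not overlap, and the rises of the last pair were 1.43 ± 0.11 for Pgk1 and 1.39 ± 0.12 for Pgam1 (adjusted p of 5.15e-06 and 1.66e-05).

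Pkm and Gapdh rose as well. Pkm, the pyruvate kinase of tumours and most tissues, measured 12.62, 12.58 and 12.53 in hypoxia DMSO and 11.67, 11.68 and 11.59 in normoxia DMSO and rose by 0.93 ± 0.11 (adjusted p = 0.000491). Gapdh, a common reference gene, measured 12.38, 12.47 and 12.54 in hypoxia DMSO and 11.81, 11.78 and 11.90 in normoxia DMSO. It rose by 0.63 ± 0.11 (adjusted p = 0.00793), and the call was lost without hypoxia DMSO array 3 or normoxia DMSO array 2, with adjusted p up to 0.052. Eno3, the muscle enolase, differed by 0.17 ± 0.14 (adjusted p = 0.631) and Pklr, the pyruvate kinase of liver and red cells, by 0.22 ± 0.16 (adjusted p = 0.573).

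At the lactate step, Ldha, the subunit that favours lactate production, measured 12.03, 12.19 and 12.14 in hypoxia DMSO and 10.81, 10.79 and 10.88 in normoxia DMSO. Ldhb, the subunit that favours lactate use, measured 8.32, 8.25 and 8.20 in hypoxia DMSO and 8.20, 8.54 and 8.32 in normoxia DMSO. Ldha rose by 1.29 ± 0.12 (adjusted p = 3.32e-05) with no overlap, while the groups of Ldhb overlapped and its difference was -0.10 ± 0.15 (adjusted p = 0.819). Slc16a3 measured 7.23, 7.44 and 7.16 in hypoxia DMSO and was below the floor on all normoxia DMSO arrays, which makes it at least 3.18-fold higher (adjusted p = 8.85e-06). The more widely expressed transporter Slc16a1 (MCT1) differed by 0.28 ± 0.14 (adjusted p = 0.378).

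The mitochondrial genes lay close together in these 2 groups. Pdha1 and Pdhb (the E1 subunits of pyruvate dehydrogenase), Dlat (E2), Dld (E3) and Mpc1 (a subunit of the mitochondrial pyruvate carrier) differed by between -0.24 and 0.18, and 0 of the 5 passed the test. Among the pentose phosphate genes, Pgd, the second NADPH-producing enzyme of the pathway, differed by 0.24 ± 0.14 (adjusted p = 0.443). Taldo1, the transaldolase of its non-oxidative arm, measured 8.74, 8.72 and 8.60 in hypoxia DMSO and 9.06, 9.01 and 9.11 in normoxia DMSO, a difference of -0.37 ± 0.12 (adjusted p = 0.125) that did not pass the test.

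**Figure D2:**
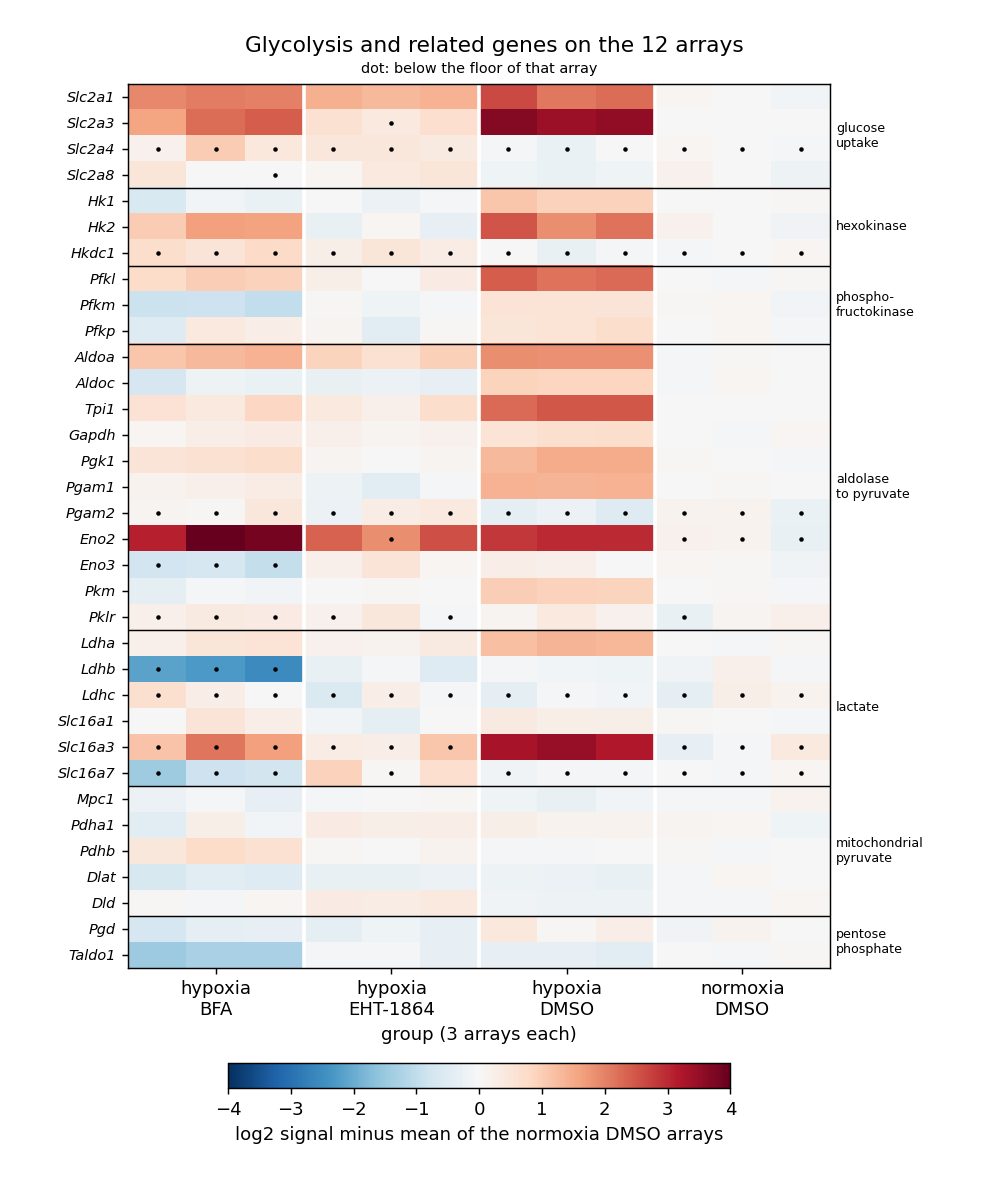
Log2 signal of the 34 measured genes on each of the 12 arrays, as the difference from the mean of the 3 normoxia DMSO arrays (colour scale, log2 units), with genes grouped by role and 3 arrays per group. A dot marks an array on which the gene was below the floor. Slc2a3 lies above its normoxia mean in the hypoxia DMSO columns and Taldo1 below it in the BFA columns, and the BFA columns of Ldhb and Slc16a3 carry dots.

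Other genes of glucose metabolism were taken from a list of 52, of which 50 were measured. In hypoxia DMSO against normoxia DMSO, 6 of the 50 (12%) rose, 0 fell and 44 did not pass the test. The shares over all clusters were 2.11% higher and 0.563% lower. Of the 32 that were above the floor in at least 1 of these groups, 5 rose. Pgm1, which links glycogen to glycolysis, measured 10.00, 9.81 and 9.94 in hypoxia DMSO and 7.73, 7.78 and 7.76 in normoxia DMSO and rose by 2.16 ± 0.12 (adjusted p = 1.93e-07). The cytosolic malic enzyme Me1 rose by 1.40 ± 0.12 (adjusted p = 1.02e-05), and Txnip, an arrestin that restrains glucose uptake, rose by 1.99 ± 0.17 (adjusted p = 1.66e-05).

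BFA in hypoxia was next set against DMSO in hypoxia. Of the 34 genes, 20 fell, 5 rose and 9 did not pass the test. Among the falls were those of Pfkl, Pfkm, Hk1, Aldoc, Tpi1, Pgam1, Pkm, Ldha and Pgk1, of between 0.82 and 1.81. The calls of Ldha and Pgk1 were lost after scaling to a common SD. The other enzymes that fell were Ldhb, Taldo1, Eno3, Hk2, Pgd, Aldoa, Gapdh and Dlat. Slc2a1 and Pfkp did not pass the test, although they were called lower in 5 and 7 of the 22 alternatives, and the neuronal enolase Eno2 rose. Slc2a8 and Dld did not pass either but were called higher in 6 and 3 alternatives. In 1 alternative each, Pdha1 was called lower and Mpc1 higher. Over all clusters, 26.1% were called higher and 24.6% lower, so a large share of the array passed the test in both directions. The median log2 difference was -0.64 over the 34 genes and 0.11 over all clusters. Among the 5 that rose, Hkdc1, Pgam2 and Slc2a4 were below the floor on all arrays of both groups, as was Slc16a7 among those that fell. Without such genes, 19 fell and 2 rose of 29. Ldhb, Eno3 and Slc16a3 stayed among the 29 through their hypoxia DMSO arrays alone. The sign of the all-cluster median depended on dim clusters. It was -0.27 with a filter of log2 6 on 3 arrays, with 2197 clusters higher and 5018 lower, and -0.28 with a filter of the floor on 3 arrays, with 2155 higher and 5268 lower. Only 30.45% and 29.03% of the calls under these filters were higher, so brighter clusters leaned lower in general.

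The narrower range of the BFA arrays moved with this comparison. After scaling to a common SD, an alternative chosen after seeing the data, 13 of the 34 genes were lower and 9 higher, with a median of -0.15, and over all clusters 6571 were higher and 4097 lower, against 5799 and 5470 as reported. Beside the gene values, 6 of 7 markers of oligodendrocyte progenitor and glioma cells fell, with list sums of 55.8 to 56.3 log2 units on the BFA arrays and 72.3 to 72.5 on the hypoxia DMSO arrays. Of the other lists, 3 of 6 neuron markers (Map2, Syn1 and Syt1) and 3 of 6 astrocyte markers (Slc1a3, S100a6 and Gja1, the last below the floor in both groups) fell. Sums of the neuron list were 31.4 to 33.4 log2 units with BFA and 36.7 to 37.0 in hypoxia DMSO, and those of the astrocyte list 27.2 to 28.1 and 30.2 to 30.9. Called higher were 3 of 6 markers of fibroblasts or pericytes, 2 of 6 of endothelium and 1 of 6 of microglia or macrophages, and of these 6 only Col1a1 was above the floor. The part of these markers in the differences was not tested, and in bulk RNA fewer cells of a type and less RNA per cell cannot be told apart.

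Among the transporters, Slc2a3 measured 7.25, 7.91 and 8.09 with BFA, against 9.23 ± 0.12 in hypoxia DMSO (SD, n = 3), with no overlap. It fell by 1.48 ± 0.18 (adjusted p = 2.78e-05). Slc2a1 measured 10.99, 11.10 and 11.07 with BFA, against 11.40 ± 0.28 in hypoxia DMSO (SD, n = 3). Although its arrays did not overlap, the difference of -0.34 ± 0.14 (adjusted p = 0.0555) did not pass the test, with a 95% interval of -0.64 to -0.04. It was 0.31 after scaling to a common SD. Slc2a8 differed by 0.38 ± 0.16 (adjusted p = 0.0655).

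Hk1 measured 8.31, 8.79 and 8.65 with BFA, against 9.88 ± 0.12 in hypoxia DMSO (SD, n = 3). Hk2 measured 7.40, 8.03 and 7.99 with BFA, against 8.57 ± 0.34 in hypoxia DMSO (SD, n = 3). Neither gene overlapped between the groups, and BFA array 1 was the lowest of both. Hk1 fell by 1.30 ± 0.14 (adjusted p = 7.41e-06) and Hk2 by 0.77 ± 0.21 (adjusted p = 0.00758), and the call of Hk2 was lost after quantile normalization or scaling to a common SD, with adjusted p up to 0.102.

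Among the phosphofructokinase subunits, Pfkl and Pfkm fell with BFA and Pfkp did not pass the test. Pfkl measured 9.13, 9.38 and 9.29 with BFA, against 10.67 ± 0.12 in hypoxia DMSO (SD, n = 3), and fell by 1.40 ± 0.13 (adjusted p = 1.74e-06). Pfkm measured 8.05, 8.09 and 7.93 with BFA, against 9.46 ± 0.03 in hypoxia DMSO (SD, n = 3), and fell by 1.43 ± 0.11 (adjusted p = 4.5e-07). Neither gene's arrays overlapped between the groups. Pfkp measured 7.57, 8.47 and 8.35 with BFA, against 8.66 ± 0.10 in hypoxia DMSO (SD, n = 3), a difference of -0.53 ± 0.21 (adjusted p = 0.0509).

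From aldolase to pyruvate kinase, 8 of the 11 genes fell and 2 rose, of which Pgam2 was below the floor. Tpi1 measured 9.60, 9.42 and 9.85 with BFA, against 11.43 ± 0.14 in hypoxia DMSO (SD, n = 3). It fell by 1.81 ± 0.15 (adjusted p = 9.69e-07), or 3.51-fold. Aldoc measured 10.87, 11.36 and 11.27 with BFA, against 12.42 ± 0.02 in hypoxia DMSO (SD, n = 3), and fell by 1.25 ± 0.13 (adjusted p = 6.54e-06). None of these arrays overlapped between the groups, and BFA array 1 was the lowest for Aldoc.

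Pgam1 measured 9.90, 9.97 and 10.06, Pkm 11.29, 11.62 and 11.55 and Pgk1 11.14, 11.23 and 11.32 with BFA. Each lay below all its hypoxia DMSO arrays, and they fell by 1.17 ± 0.12, 1.09 ± 0.11 and 0.82 ± 0.11 in that order, with adjusted p of at most 4.98e-05. Scaling to a common SD ended the call of Pgk1, at a difference of -0.13 (adjusted p = 0.346).

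Aldoa measured 11.75, 11.94 and 12.03 with BFA, against 12.47 ± 0.03 in hypoxia DMSO (SD, n = 3), and fell by 0.57 ± 0.12 (adjusted p = 0.00191), but after scaling to a common SD it differed by 0.18 (adjusted p = 0.212). Gapdh measured 11.92, 12.10 and 12.17 with BFA, against 12.46 ± 0.08 in hypoxia DMSO (SD, n = 3), and fell by 0.40 ± 0.11 (adjusted p = 0.00939), but after that scaling it was called higher at 0.35 (adjusted p = 0.0171). The direction of both therefore depended on the scaling of the arrays.

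The enolases went apart. Eno2 measured 7.32, 8.18 and 8.02 with BFA, against 7.01, 7.19 and 7.16 in hypoxia DMSO. All BFA arrays were above all hypoxia DMSO arrays, and it rose by 0.72 ± 0.23 (adjusted p = 0.0195), with the call lost without hypoxia DMSO array 1, BFA array 2 or BFA array 3 (adjusted p up to 0.0766). Eno3 was below the floor on all 3 BFA arrays, at 5.61, 5.68 and 5.41, against 6.63, 6.56 and 6.39 in hypoxia DMSO, and it was at least 1.02-fold lower (adjusted p = 0.000104).

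Ldhb fell below the floor. Its signal was 6.23, 6.07 and 5.82 with BFA, below the floor on all 3 arrays, against 8.32, 8.25 and 8.20 in hypoxia DMSO. Ldhb was at least 3.39-fold lower (adjusted p = 1.35e-07). Its partner Ldha measured 11.04, 11.30 and 11.37 with BFA, against 12.12 ± 0.08 in hypoxia DMSO (SD, n = 3), and fell by 0.88 ± 0.12 (adjusted p = 6.56e-05). After scaling to a common SD, Ldha differed by -0.19 (adjusted p = 0.195).

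Slc16a3 fell below the floor on all BFA arrays, at 5.09, 6.07 and 5.57, and was at least 1.72-fold lower than in hypoxia DMSO (adjusted p = 0.000206). Slc16a1 measured 7.73, 8.26 and 8.01 with BFA, against 8.10, 7.98 and 7.99 in hypoxia DMSO. Its arrays overlapped, and the difference was -0.02 ± 0.14 (adjusted p = 0.896) with a 95% interval of -0.33 to 0.28.

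In mitochondrial pyruvate use, Pdhb rose and Dlat fell. Pdhb measured 10.27, 10.56 and 10.43 with BFA, against 9.75, 9.74 and 9.81 in hypoxia DMSO, and rose by 0.65 ± 0.11 (adjusted p = 0.000383) with no overlap. Dlat measured 7.98, 8.20 and 8.11 with BFA, against 8.42, 8.37 and 8.33 in hypoxia DMSO. Its fall of 0.28 ± 0.11 (adjusted p = 0.0455) was at the edge of the threshold, and it was lost in 16 of 22 alternatives, in 2 of which the sign turned. Pdha1, Dld and Mpc1 did not pass the test.

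Both pentose phosphate genes fell. Taldo1 measured 7.61, 7.75 and 7.78 with BFA, against 8.74, 8.72 and 8.60 in hypoxia DMSO, with a gap between the groups wider than the range of either. It fell by 0.98 ± 0.12 (adjusted p = 2.03e-05). Pgd measured 8.32, 8.63 and 8.66 with BFA, against 9.41, 9.05 and 9.26 in hypoxia DMSO, and fell by 0.70 ± 0.14 (adjusted p = 0.00124), with the call lost after scaling to a common SD (adjusted p = 0.111).

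Of the 50 other genes of glucose metabolism, 19 (38%) fell and 9 (18%) rose with BFA, against 24.6% and 26.1% of all clusters. Without those below the floor in both groups, 16 fell and 4 rose of 30. Bpgm, which makes 2,3-bisphosphoglycerate, was below the floor on all BFA arrays and at least 1.45-fold lower (adjusted p = 2.14e-08). Me1 fell by 1.80 ± 0.12 (adjusted p = 8.5e-08). Emb, the accessory protein of monocarboxylate transporters, was at least 1.51-fold lower (adjusted p = 1.09e-05).

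EHT-1864 in hypoxia was set against the same 3 hypoxia DMSO arrays, so its values and those of BFA share their control. Of the 34 genes, 19 fell, 6 rose and 9 did not pass the test. Slc2a3, Hk2, Pfkl and Tpi1 had the largest falls among genes above the floor in both groups (Slc2a3 on 2 of 3 EHT-1864 arrays). Over all clusters, 13% were called higher and 17.4% lower, and the median log2 difference was -0.50 over the 34 genes and 0.06 over all clusters. With the filters the all-cluster median was -0.13 (log2 6, 2067 higher and 3810 lower) and -0.14 (the floor, 2042 and 4005). Only 35.17% and 33.77% of these calls were higher. Hkdc1, Pgam2 and Slc2a4, which are among the 6 that rose, were below the floor in both groups, and without such genes 19 fell and 3 rose of 30. The other 3 that rose were Slc2a8, Dld and Slc16a7. Slc16a7 was below the floor on the hypoxia DMSO arrays and above it on 2 of 3 EHT-1864 arrays, and it was at least 1.30-fold higher (adjusted p = 0.0345), a call lost without any 1 of the hypoxia DMSO arrays or EHT-1864 array 1 or 3 (adjusted p up to 0.132). After scaling to a common SD, 14 of the 34 were lower and 8 higher, and over all clusters 3785 were higher and 2933 lower, against 2893 and 3874 as reported.

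The oligodendrocyte progenitor and glioma markers moved with this comparison too, with 6 of 7 lower and list sums of 64.3 to 65.3 log2 units on the EHT-1864 arrays, against 72.3 to 72.5 on the hypoxia DMSO arrays. Lower too were 2 of 6 neuron markers (Map2 and Syn1) and 2 of 6 astrocyte markers (Slc1a3 and Gja1). Csf1r and Dcn were called higher, and these 2 and Gja1 were below the floor in both groups. Their part was not tested. Fewer genes were called with 1 array left out, with 17 without hypoxia DMSO array 1 or 2 and 18 without hypoxia DMSO array 3 or EHT-1864 array 2. The genes called higher, 6 as reported, numbered 1 without hypoxia DMSO array 2 and 2 without hypoxia DMSO array 1 or 3 or EHT-1864 array 2 or 3.

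Slc2a3 measured 6.29, 6.08 and 6.35 with EHT-1864, above the floor on 2 of 3 arrays, against 9.23 ± 0.12 in hypoxia DMSO (SD, n = 3). It fell by 2.99 ± 0.18 (adjusted p = 2.9e-07), or 7.93-fold. Slc2a1 measured 10.47, 10.34 and 10.45 with EHT-1864, against 11.40 ± 0.28 in hypoxia DMSO (SD, n = 3), with no overlap. It fell by 0.98 ± 0.14 (adjusted p = 0.000232). Slc2a8 measured 6.45, 6.77 and 6.85 with EHT-1864, against 6.20, 6.10 and 6.20 in hypoxia DMSO, and rose by 0.52 ± 0.16 (adjusted p = 0.0262), with the call lost without any 1 of the hypoxia DMSO arrays or without EHT-1864 array 2 or 3 (adjusted p up to 0.0946).

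Hk2 measured 6.10, 6.46 and 6.06 with EHT-1864, against 8.57 ± 0.34 in hypoxia DMSO (SD, n = 3), and fell by 2.37 ± 0.21 (adjusted p = 5.38e-06). Hk1 measured 8.93, 8.67 and 8.81 with EHT-1864, against 9.88 ± 0.12 in hypoxia DMSO (SD, n = 3), and fell by 1.08 ± 0.14 (adjusted p = 0.000105). The arrays of both genes were separate between the groups. The phosphofructokinase subunit Pfkl measured 8.63, 8.38 and 8.72 with EHT-1864, against 10.67 ± 0.12 in hypoxia DMSO (SD, n = 3), and fell by 2.09 ± 0.13 (adjusted p = 2.79e-07).

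The other phosphofructokinase subunits fell by smaller amounts. Pfkm measured 8.95, 8.74 and 8.84 with EHT-1864 and fell by 0.61 ± 0.11 (adjusted p = 0.00122). Pfkp measured 8.18, 7.66 and 8.13 and fell by 0.67 ± 0.21 (adjusted p = 0.0293), a call that was lost after quantile normalization or scaling to a common SD and without any 1 of the hypoxia DMSO arrays or EHT-1864 array 2 (adjusted p up to 0.126).

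From aldolase to pyruvate kinase, 8 of the 11 genes fell and 1, Pgam2, rose below the floor. Tpi1 measured 9.41, 9.21 and 9.73 with EHT-1864, against 11.43 ± 0.14 in hypoxia DMSO (SD, n = 3), and fell by 1.98 ± 0.15 (adjusted p = 2.14e-06). Pgam1 measured 9.54, 9.31 and 9.71 and fell by 1.62 ± 0.12 (adjusted p = 1.52e-06), and Pgk1 measured 10.72, 10.64 and 10.71 and fell by 1.36 ± 0.11 (adjusted p = 3.04e-06). None of the 3 overlapped with its hypoxia DMSO arrays.

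Aldoc, Aldoa and Pkm formed a group with smaller falls. With EHT-1864, Aldoc measured 11.26, 11.33 and 11.22, Aldoa 11.53, 11.25 and 11.58 and Pkm 11.64, 11.71 and 11.62. They fell by 1.15 ± 0.13, 1.02 ± 0.12 and 0.92 ± 0.11 in that order, with adjusted p of at most 8.54e-05 and no overlap.

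Gapdh measured 12.04, 11.94 and 12.02 with EHT-1864 and fell by 0.47 ± 0.11 (adjusted p = 0.00733), a call that scaling to a common SD ended at -0.11 (adjusted p = 0.467). Eno2 measured 6.54, 6.06 and 6.78 with EHT-1864, above the floor on 2 of 3 arrays, against 7.01, 7.19 and 7.16 in hypoxia DMSO. Its fall of 0.66 ± 0.23 (adjusted p = 0.0448) was lost in 11 of 22 alternatives (adjusted p up to 0.184). Eno3 measured 6.57, 6.89 and 6.45 with EHT-1864 and differed by 0.11 ± 0.14 (adjusted p = 0.587).

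At the lactate step, Ldha and Slc16a3 fell and Ldhb did not pass the test. Ldha measured 11.01, 10.96 and 11.18 with EHT-1864, against 12.12 ± 0.08 in hypoxia DMSO (SD, n = 3), and fell by 1.07 ± 0.12 (adjusted p = 3.97e-05). Ldhb measured 8.06, 8.27 and 7.83 with EHT-1864, overlapped with hypoxia DMSO and differed by -0.20 ± 0.15 (adjusted p = 0.331). Slc16a3 was below the floor on all EHT-1864 arrays and at least 2.42-fold lower (adjusted p = 1.33e-05). Slc16a1 measured 7.62, 7.40 and 7.73 with EHT-1864 and fell by 0.44 ± 0.14 (adjusted p = 0.0338), a call that was lost in 9 of 22 alternatives (adjusted p up to 0.143).

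Of the 5 genes of mitochondrial pyruvate use, only Dld passed the test. Dld, which the pyruvate and 2-oxoglutarate dehydrogenase complexes share, measured 8.99, 8.97 and 9.07 with EHT-1864, against 8.53, 8.46 and 8.46 in hypoxia DMSO, and rose by 0.53 ± 0.11 (adjusted p = 0.0025) with no overlap. Pgd measured 8.63, 8.84 and 8.68 with EHT-1864 and fell by 0.53 ± 0.14 (adjusted p = 0.0136), with the call lost after scaling to a common SD or without hypoxia DMSO array 1 (adjusted p up to 0.117). Taldo1 measured 9.00, 9.03 and 8.74 with EHT-1864 and differed by 0.23 ± 0.12 (adjusted p = 0.149).

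Among the 50 other genes, 13 (26%) fell and 7 (14%) rose with EHT-1864, against 17.4% and 13% of all clusters. Without those below the floor in both groups, 13 fell and 3 rose of 31. Pgm1 measured 7.74, 7.63 and 7.68 with EHT-1864, against 10.00, 9.81 and 9.94 in hypoxia DMSO, and fell by 2.23 ± 0.12 (adjusted p = 8.92e-08). Txnip fell by 2.83 ± 0.17 (adjusted p = 2.9e-07) and Me1 by 1.52 ± 0.12 (adjusted p = 1.8e-06).

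**Figure D3:**
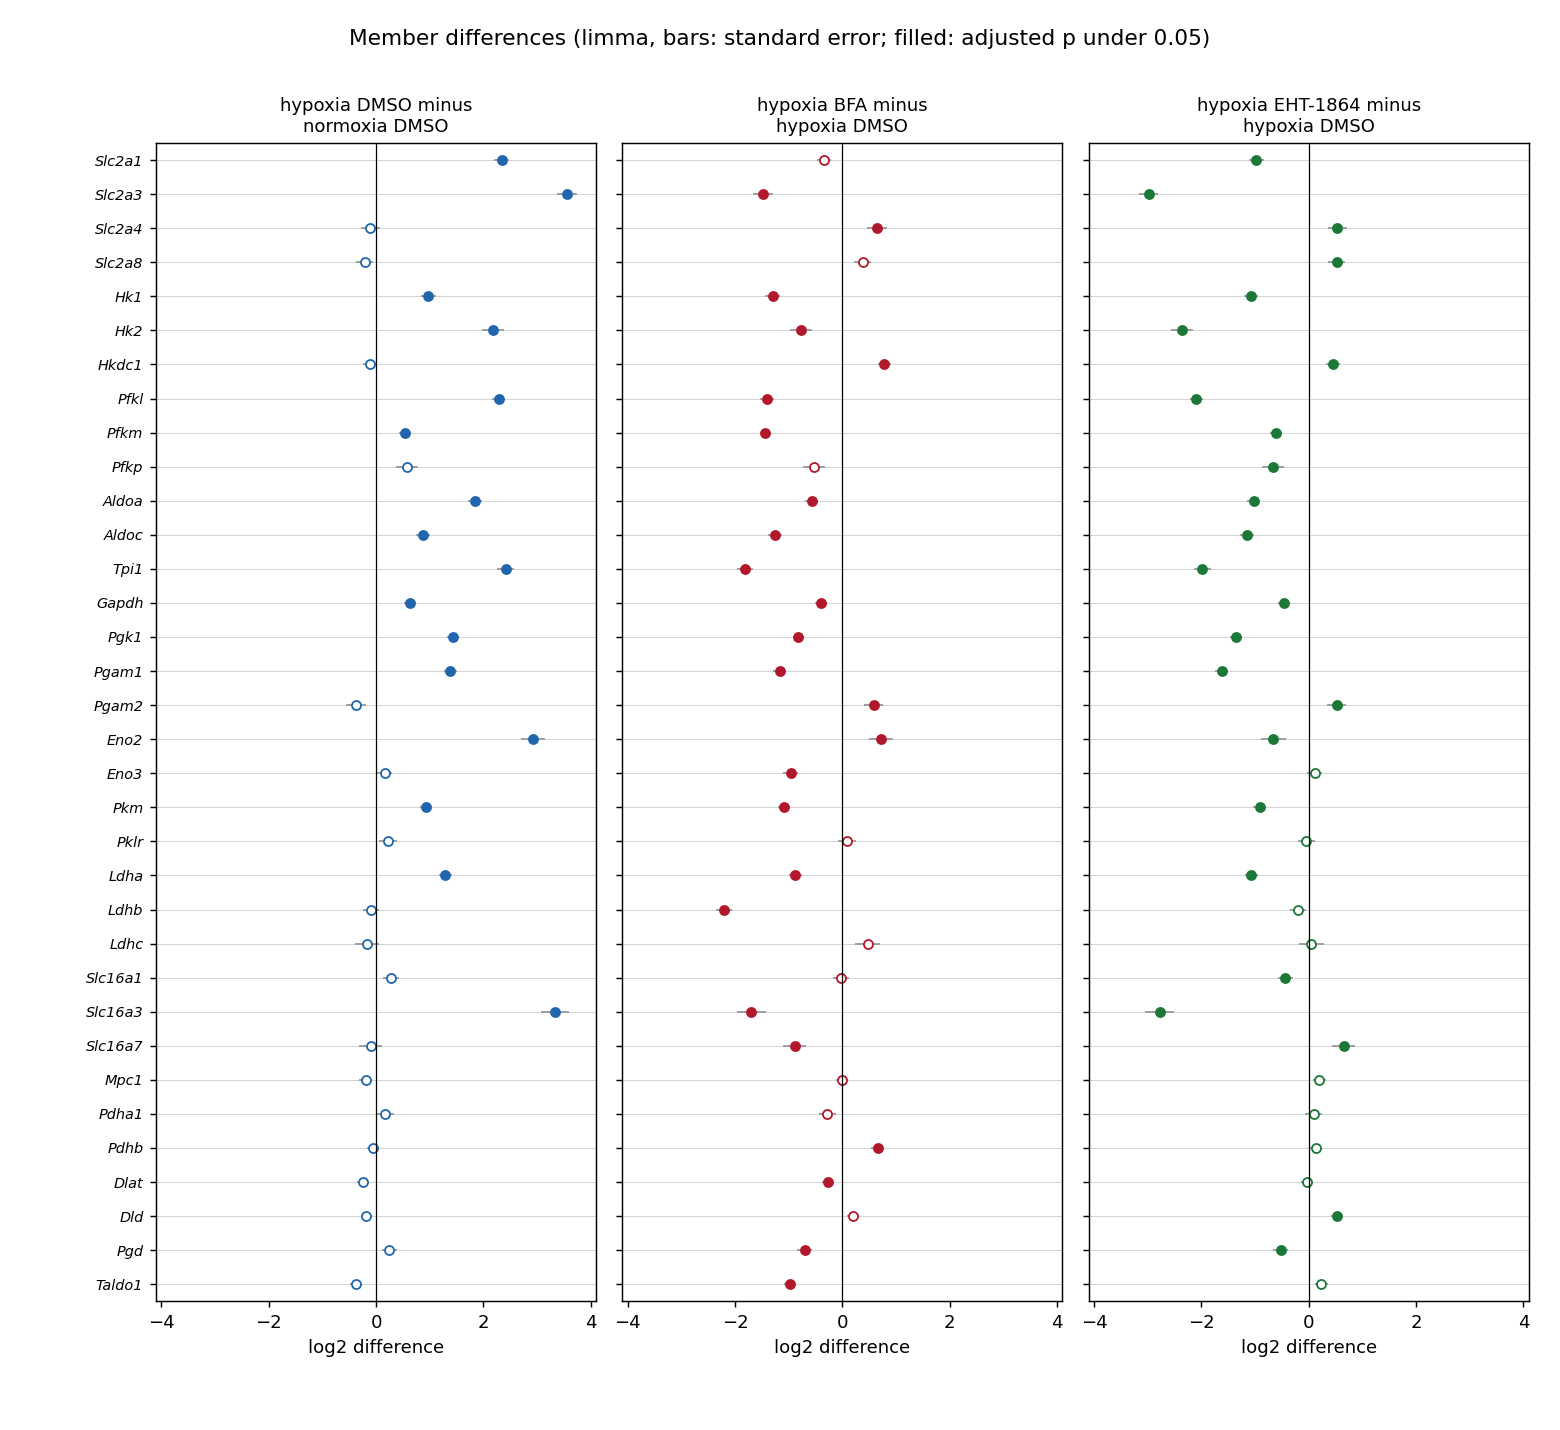
Log2 difference of each of the 34 genes (points, with the standard error of the limma fit as a bar) for hypoxia DMSO minus normoxia DMSO, hypoxia BFA minus hypoxia DMSO and hypoxia EHT-1864 minus hypoxia DMSO, with filled points where the adjusted p was under 0.05. The first panel holds 16 filled points, all to the right of 0. The second holds 20 to the left and 5 to the right, and the third 19 to the left and 6 to the right.

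The direct comparison of BFA with EHT-1864 in hypoxia showed where the compounds differed. Of the 34 genes, 11 were higher and 6 lower with BFA than with EHT-1864, and 17 did not pass the test. Over all clusters, 16.9% were called higher and 19.6% lower, and the median log2 difference was 0.12 over the 34 genes and 0.06 over all clusters (-0.14 and -0.15 with the filters of log2 6 and of the floor). The counts after scaling to a common SD were 15 higher and 5 lower. Over all clusters that scaling gave 4288 higher and 3745 lower, against 3760 and 4348 as reported. Since the BFA dose was either 1 µM or 0.1 µM and the EHT-1864 dose was 1 µM, the doses may not match, and the values describe these cultures only. Of the 7 progenitor and glioma markers, 6 were lower and Nes was higher with BFA, and 3 of 6 neuron and 2 of 6 astrocyte markers were lower. Csf1r was called lower and Col1a1 higher. Csf1r and the astrocyte marker Gfap were below the floor with both compounds. The part of these markers in the differences was not tested.

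Higher with BFA were Hk2, Slc2a3, Eno2, Pfkl, Slc2a1, Pgk1, Pdhb, Pgam1, Aldoa and Slc16a1, together with Slc16a3, which was below the floor with both compounds. Hk2 measured 7.40, 8.03 and 7.99 with BFA, against 6.10, 6.46 and 6.06 with EHT-1864, a difference of 1.60 ± 0.21 (adjusted p = 4.37e-05). Slc2a3 measured 7.25, 7.91 and 8.09 with BFA, against 6.29, 6.08 and 6.35 with EHT-1864, a difference of 1.51 ± 0.18 (adjusted p = 2.69e-05). Neither overlapped between the compounds. Eno2 was 1.38 ± 0.23 higher, Pfkl 0.69 ± 0.13 and Slc2a1 0.63 ± 0.14, with adjusted p of at most 0.00287.

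Smaller differences in the same direction were found for Pgk1 (0.54), Pdhb (0.53), Pgam1 (0.46), Aldoa (0.45) and Slc16a1 (0.41), all on the log2 scale. The calls of Pgam1 and Aldoa were lost when the fit held only these groups (adjusted p of 0.0656 and 0.0694), and that of Slc16a1, whose arrays overlapped, was lost in 8 of 22 alternatives.

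Lower with BFA were Ldhb, Slc16a7, Taldo1, Eno3, Pfkm and Dld. Ldhb measured 6.23, 6.07 and 5.82 with BFA, below the floor, against 8.06, 8.27 and 7.83 with EHT-1864, and it was at least 2.95-fold lower (adjusted p = 4.39e-07). Taldo1 measured 7.61, 7.75 and 7.78 with BFA, against 9.00, 9.03 and 8.74 with EHT-1864, a difference of -1.21 ± 0.12 (adjusted p = 3.91e-06), or 2.31-fold lower with BFA. The groups of these 2 genes did not overlap. Pfkm measured 8.05, 8.09 and 7.93 with BFA, against 8.95, 8.74 and 8.84 with EHT-1864, a difference of -0.82 ± 0.11 (adjusted p = 6.88e-05).

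Eno3 was at least 1.11-fold lower with BFA (adjusted p = 4.92e-05). Slc16a7 was below the floor with BFA and is called lower with no fold, since its EHT-1864 signal did not exceed the BFA floor (adjusted p = 8.19e-05). Dld differed by -0.33 ± 0.11 (adjusted p = 0.026), a call that was lost in 6 of 22 alternatives (adjusted p up to 0.44). Within the phosphofructokinases, Pfkl was thus higher and Pfkm lower with BFA than with EHT-1864, and Pfkp did not pass the test at 0.14 ± 0.21 (adjusted p = 0.649).

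Several genes did not pass the test between the compounds. Tpi1 differed by 0.17 with a 95% interval of -0.16 to 0.51, Gapdh by 0.06 (-0.18 to 0.30), Ldha by 0.19 (-0.07 to 0.45), Aldoc by -0.10 (-0.39 to 0.18), Hk1 by -0.22 (-0.52 to 0.08) and Pkm by -0.17 (-0.42 to 0.08). Gapdh and Ldha were called higher with BFA after quantile normalization (adjusted p of 0.0215 and 0.0122) and at a common SD, as was Tpi1 at a common SD (adjusted p = 0.0439). These intervals do not show that the compounds act alike on these genes.

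Of the 50 other genes, 13 (26%) were lower and 7 (14%) higher with BFA than with EHT-1864, against 19.6% and 16.9% of all clusters. Of the 28 above the floor in at least 1 of these groups, 10 were lower and 6 higher. Pcx, the pyruvate carboxylase that feeds the citric acid cycle, measured 6.96, 7.14 and 7.31 with BFA, was below the floor on all EHT-1864 arrays and was at least 2.19-fold higher (adjusted p = 2.07e-07). Slc16a6, a transporter of the monocarboxylate family, measured 8.19, 7.77 and 8.02 with EHT-1864, was below the floor on all BFA arrays and was at least 2.83-fold lower with BFA (adjusted p = 3.87e-07). Txnip was 2.03 ± 0.17 (adjusted p = 1.36e-06) higher with BFA.

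Normoxia DMSO then served as the control for either compound, to show where the hypoxic cultures stood relative to cells with oxygen. These comparisons share the normoxia arrays. With BFA, 13 of the 34 genes were higher, 8 lower and 13 did not pass the test, over a background of 23% of all clusters called higher and 24% lower. The median was 0.23 over the 34 genes and 0.10 over all clusters (-0.26 and -0.27 with the filters). Hkdc1, Slc16a3 and Slc2a4 among the higher, and Slc16a7 among the lower, were below the floor in both groups. With the arrays scaled to a common SD, 18 were higher and 5 lower, and after quantile normalization 16 were higher and 5 lower. Over all clusters the splits were 5623 higher and 4222 lower at a common SD and 4991 and 4427 after quantile normalization. As reported, they were 5108 and 5324. Markers of oligodendrocyte progenitor and glioma cells fell here as well, 6 of 7, with sums of 71.7 to 72.6 log2 units on the normoxia arrays. So did 3 of 6 neuron and 2 of 6 astrocyte markers. Called higher were 3 of 6 endothelial and 2 of 6 fibroblast or pericyte markers, of which only Col1a1 was above the floor. The part of these markers was not tested.

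With EHT-1864, 5 of the 34 genes were higher than in normoxia DMSO (Slc2a1, Slc2a3, Aldoa, Eno2 and Dld), 0 were lower and 29 did not pass the test. Over all clusters, 8.1% were called higher and 14.3% lower, a split of 1798 and 3167 that became 2260 and 2542 after scaling to a common SD and 2211 and 2507 after quantile normalization. The median was 0.16 over the 34 genes and 0.04 over all clusters (-0.10 and -0.11 with the filters). Leaving out 1 array gave between 3 and 7 calls (3 without hypoxia DMSO array 3, EHT-1864 array 1, EHT-1864 array 3, normoxia DMSO array 1 or normoxia DMSO array 2), and the array weights gave 11, 8 higher and 3 lower. Slc2a1, Aldoa and Eno2 were called under all 22 alternatives, whereas the calls of Slc2a3 and Dld were lost in 9 and 6 of them. Of the 7 progenitor and glioma markers, 6 were lower. Of the other lists, Map2 and Slc1a3 were lower and Tubb3 and Dcn higher, with Dcn below the floor in both groups. The part of these markers was not tested.

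Read gene by gene against normoxia, Slc2a1 was 2.00 higher with BFA, 1.36 higher with EHT-1864 and 2.34 higher with DMSO in hypoxia. Eno2 was at least 4.70-fold, 1.80-fold and 2.85-fold higher in the same order. Both genes passed the test in all 3 hypoxic groups. Aldoa did so too, at 1.27, 0.82 and 1.84. So did Slc2a3, at 2.08, 0.57 and 3.56, with its EHT-1864 call lost in 9 of 22 alternatives.

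Of the other genes that rose in hypoxia with DMSO, some passed the test against normoxia with BFA but not with EHT-1864. Hk2 was 1.41 ± 0.21 (adjusted p = 9.63e-05) higher than in normoxia with BFA and differed by -0.18 ± 0.21 (adjusted p = 0.586) with EHT-1864. Pfkl was 0.88 ± 0.13 (adjusted p = 8.97e-05) higher with BFA and differed by 0.19 ± 0.13 (adjusted p = 0.333) with EHT-1864. Pgk1 was 0.61 ± 0.11 (adjusted p = 0.000514) higher with BFA and differed by 0.07 ± 0.11 (adjusted p = 0.7) with EHT-1864. For these 3 genes the direct comparison of the compounds given above also passed the test. Tpi1 was 0.60 ± 0.15 (adjusted p = 0.00595) higher with BFA and differed by 0.43 ± 0.15 (adjusted p = 0.0628) with EHT-1864, a difference called in 11 of 22 alternatives (adjusted p down to 0.00765), and its difference between the compounds did not pass. Ldha was 0.41 ± 0.12 (adjusted p = 0.0139) higher with BFA, a call lost without BFA array 3 (adjusted p = 0.0529), and it differed by 0.22 ± 0.12 (adjusted p = 0.224) with EHT-1864.

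Hk1, Gapdh, Pgam1 and Pkm, which rose in hypoxia with DMSO, did not pass the test against normoxia with either compound, with differences between -0.32 and 0.23 for BFA and between -0.23 and 0.17 for EHT-1864. After scaling to a common SD, Pkm was called higher with BFA at 0.43 (adjusted p = 0.00539), as were Gapdh at 0.87 (3.12e-05) and Pgam1 at 0.67 (0.000419), while Gapdh was called higher with EHT-1864 at 0.40 (0.0194). Gapdh and Pgam1 were also called higher with BFA after quantile normalization, at 0.41 and 0.48, and over all alternatives Gapdh was called in 6 of 22, Hk1 (as lower) in 4 and Pgam1 in 3. Aldoc was lower than in normoxia with BFA, at -0.38 ± 0.13 (adjusted p = 0.0291), but it turned to 0.19 after that scaling (adjusted p = 0.246), and the call was lost in 7 of 22 alternatives, among them without BFA array 1, normoxia DMSO array 2 or normoxia DMSO array 3. Pfkm, which rose in hypoxia with DMSO, was lower than in normoxia with BFA, at -0.90 ± 0.11 (adjusted p = 2.45e-05).

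Of the genes that did not pass the test in hypoxia with DMSO, 5 above the floor in at least 1 of the groups were below their normoxia values with BFA. Ldhb was at least 3.64-fold lower (adjusted p = 8.01e-08) and Taldo1 fell by 1.35 ± 0.12 (adjusted p = 1.03e-06). Eno3, below the floor with BFA, averaged 5.57 ± 0.14 with BFA and 6.36 ± 0.11 in normoxia DMSO (SD, n = 3 each; adjusted p = 0.000445), with no fold given because its normoxia signal did not exceed the BFA floor. Dlat fell by 0.52 ± 0.11 (adjusted p = 0.00146) and Pgd by 0.46 ± 0.14 (adjusted p = 0.0178), and both calls were lost after quantile normalization or scaling to a common SD, that of Pgd also without BFA array 1 or normoxia DMSO array 2. Pdhb went the other way and was 0.60 ± 0.11 (adjusted p = 0.000777) higher. With EHT-1864, Ldhb differed from normoxia by -0.30 ± 0.15 (adjusted p = 0.178), Taldo1 by -0.14 ± 0.12 (adjusted p = 0.45) and Pdhb by 0.07 ± 0.11 (adjusted p = 0.727).

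**Figure D4:**
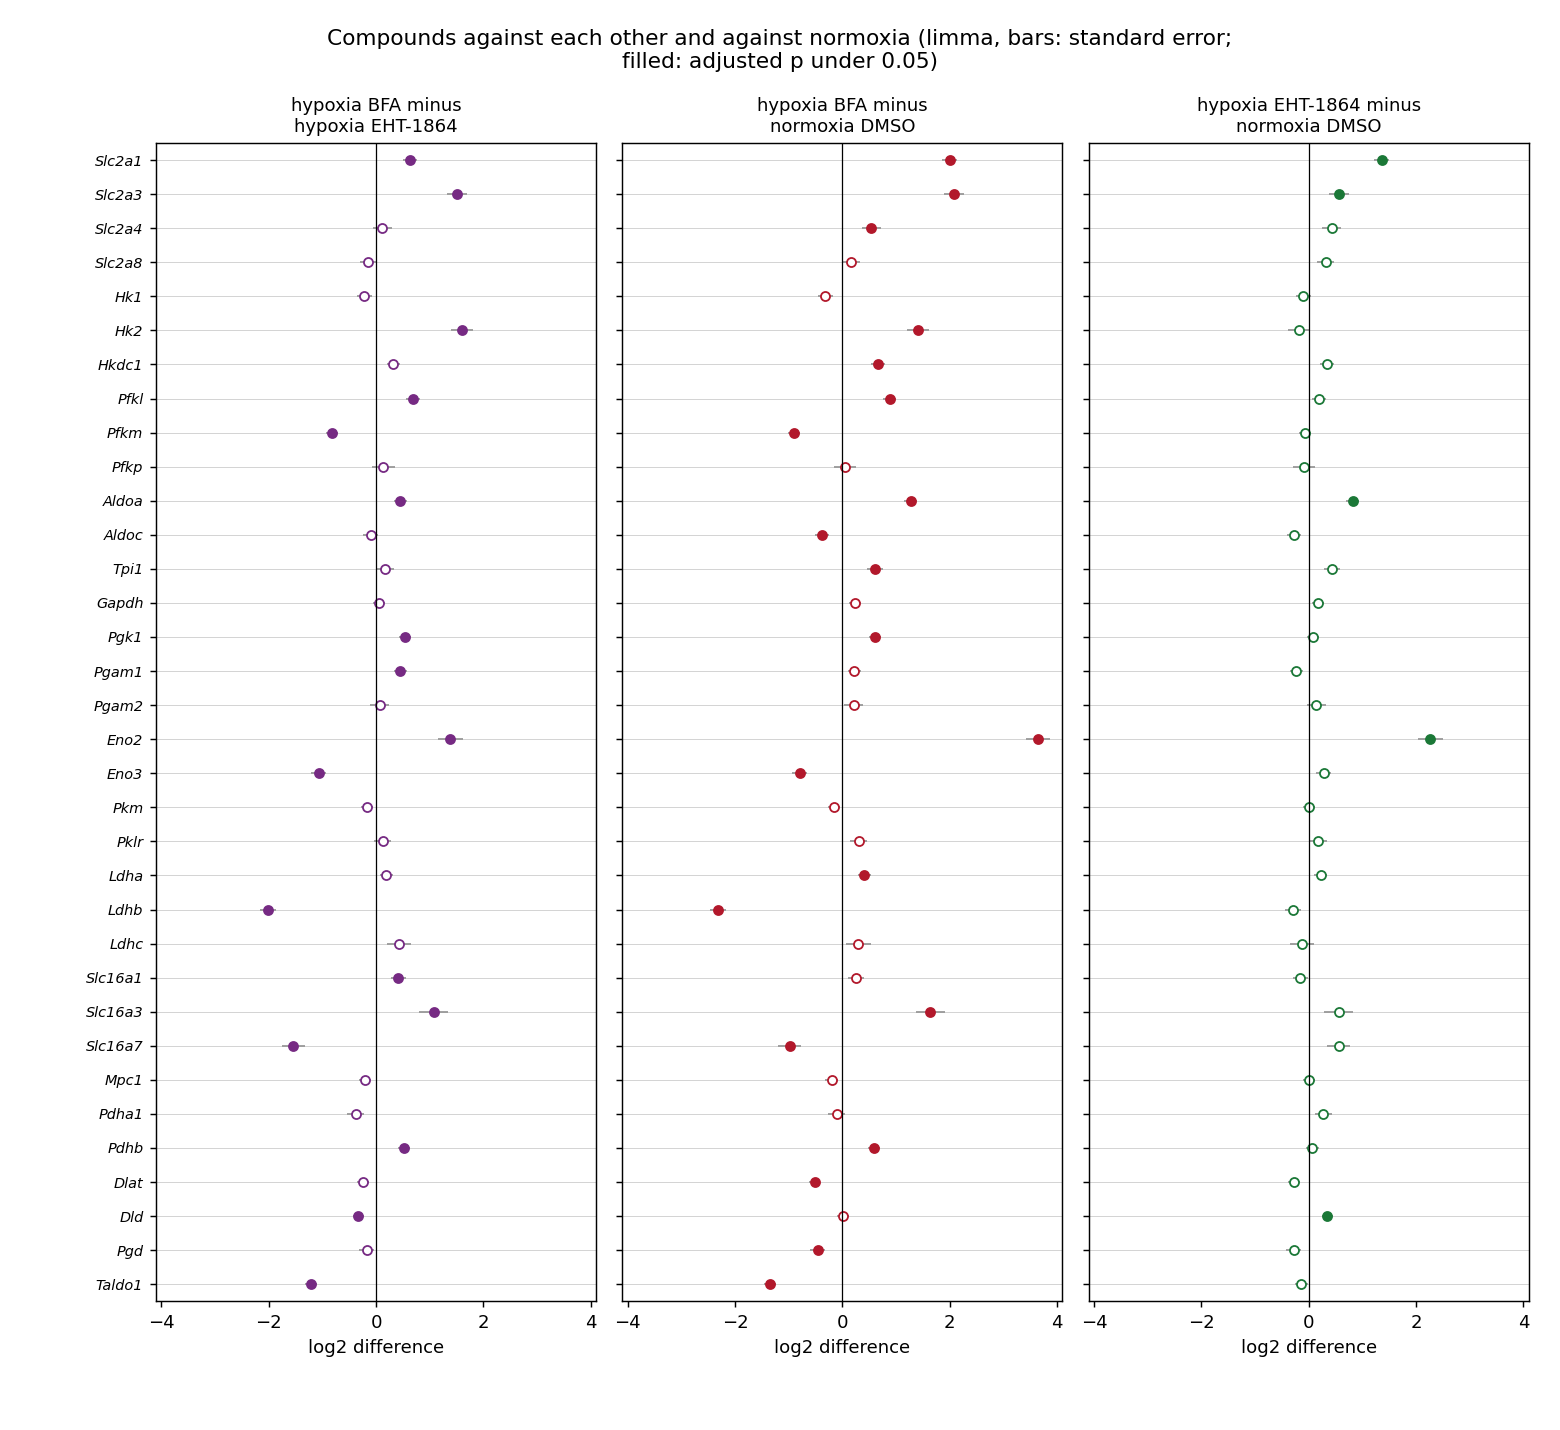
Log2 difference of each of the 34 genes (points, with the standard error of the limma fit as a bar) for hypoxia BFA minus hypoxia EHT-1864, hypoxia BFA minus normoxia DMSO and hypoxia EHT-1864 minus normoxia DMSO, with filled points where the adjusted p was under 0.05. The panels hold 17, 21 and 5 filled points. Ldhb and Taldo1 lie far left of 0 in the BFA panels and near 0 in the last one.

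Of the 50 other genes, 9 (18%) were higher and 19 (38%) lower with BFA than in normoxia, against 23% and 24% of all clusters. With EHT-1864, 5 (10%) were higher and 15 (30%) lower, against 8.1% and 14.3% of all clusters. Without those below the floor in both groups compared, 6 were higher and 17 lower of 32 with BFA, and 3 higher and 15 lower of 33 with EHT-1864. With BFA, Bpgm was at least 1.79-fold lower (adjusted p = 6.67e-09), Pck2, the mitochondrial phosphoenolpyruvate carboxykinase, rose by 2.63 ± 0.19 (adjusted p = 2.08e-07) and Pgm1 by 1.18 ± 0.12 (adjusted p = 2.92e-06). With EHT-1864, Slc16a6 was at least 5.23-fold higher (adjusted p = 1.64e-06), Bpgm fell by 1.45 ± 0.12 (adjusted p = 5.49e-06), with 1 of 3 EHT-1864 arrays above the floor, and Pgp, a phosphoglycolate phosphatase, by 1.28 ± 0.13 (adjusted p = 1.88e-05).

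Unequal change within pairs of isoenzymes or transporters was followed as a log2 ratio within each array. This cancels a shift shared by the 2 clusters of an array, but not the narrower range of the compound arrays. The ratios were not recomputed at a common SD. Differences of this ratio between groups show unequal change, not levels. The Ldhb to Ldha ratio differed from normoxia by -2.73 with BFA, by -0.52 with EHT-1864 and by -1.39 in hypoxia DMSO, with Ldhb below the floor on the BFA arrays. The Pfkm to Pfkl ratio differed from normoxia by -1.78 with BFA, by -0.27 with EHT-1864 and by -1.75 in hypoxia DMSO. Between BFA and hypoxia DMSO this ratio differed by -0.03 with overlapping arrays.

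The Hk2 to Hk1 ratio differed from normoxia by 1.73 with BFA, by -0.08 with EHT-1864 and by 1.20 in hypoxia DMSO, and only the EHT-1864 arrays overlapped with normoxia. The Slc2a3 to Slc2a1 ratio differed from normoxia by 0.08 with BFA, by -0.80 with EHT-1864 and by 1.22 in hypoxia DMSO. Slc2a3 lay near the floor in normoxia and with EHT-1864, which limits these differences. Over 7 pairs and 6 comparisons, 42 two-sided exact permutation tests were run. With 3 arrays against 3, an exact permutation test cannot go below p = 0.1, a value that 37 reached (0.114 after Benjamini-Hochberg adjustment), so none could pass the threshold.

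**Figure D5:**
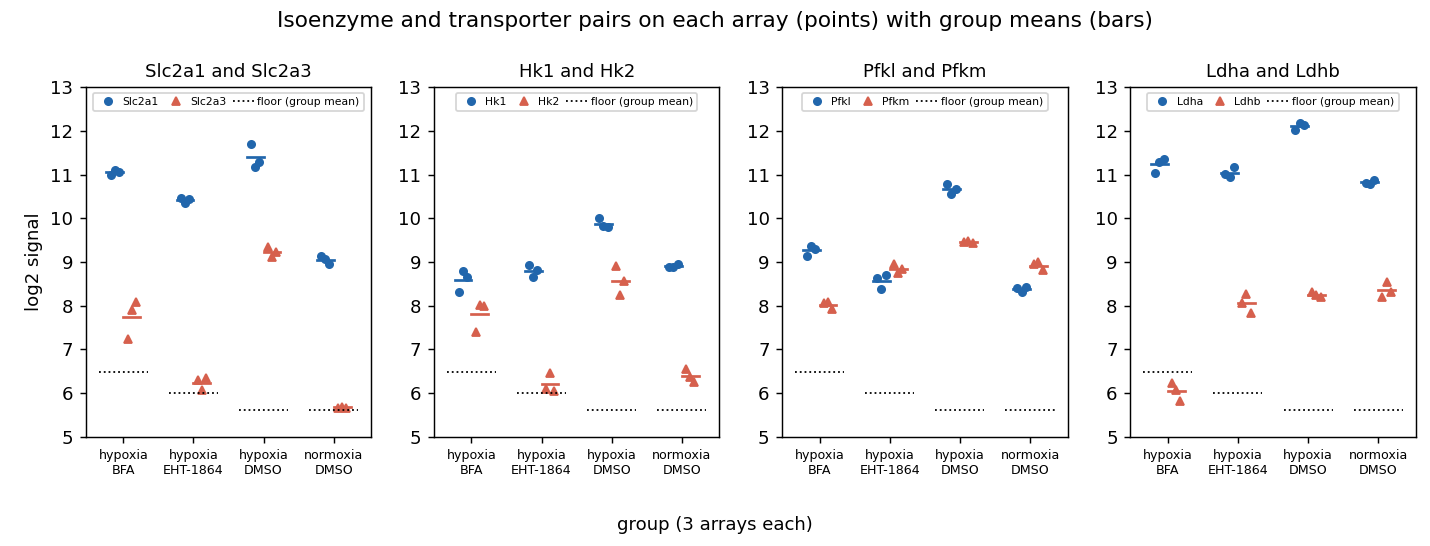
Log2 signal on each array (points) and group means (bars) for Slc2a1 and Slc2a3, Hk1 and Hk2, Pfkl and Pfkm, and Ldha and Ldhb in the 4 groups, with the mean floor of each group as a dotted line. Heights of the 2 genes in a panel are not comparable with each other, only their change between groups. Ldhb lies below the floor with BFA, while Slc2a3 and Hk2 lie near the floor with EHT-1864 and in normoxia DMSO are at 5.67 to 5.68 and 6.25 to 6.55.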

How the data were processed

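Total RNA of 12 cultures (4 groups of 3) was measured on Clarion S mouse arrays. The authors deposited log2 signals per transcript cluster made with Affymetrix Expression Console and RMA, per the submitters' processing notes, and versions and build are not given in the sources used here. From 28846 entries, 6640 controls were left out and 22206 clusters were tested with no filter on dim clusters. Symbols came from the platform annotation, updated by Entrez number: 19572 clusters had 1 symbol, 0 several and 2634 none. One linear model over all 12 arrays (limma 3.58.1, R 4.3.3, lmFit and eBayes, residual df 8) gave 6 comparisons that share arrays, with Benjamini-Hochberg adjustment over all clusters per comparison and a threshold of 0.05. Every adjusted p in the text comes from this test unless an alternative is named. Isoenzyme ratios had exact permutation tests (SciPy 1.17.1). The number of arrays limits the precision. Genes, roles and lists were chosen with earlier results of these data known, so list counts are descriptions. Values per array are given for genes called at least once and above the floor on all arrays of at least 1 group, and of the other pathway genes the 3 with the smallest adjusted p per comparison are named. The limma fit was tested on simulated data, for hypoxia DMSO against normoxia DMSO. Of 22206 clusters with independent normal noise, 67, 67 and 66 were changed by a log2 of 0.5, 1 and 2 in either direction. It recovered 7.5% of simulated log2 changes of 0.5, 77.6% of changes of 1 and 100% of changes of 2. Of its 127 calls, 4 were false. Small changes can therefore go uncalled in that comparison. Recovery can differ where more clusters change, as with the compounds, and was not simulated for them. Alternatives covered normalization, filters on dim clusters, the variance model, array weights, the arrays in the fit, a replicate block and leaving out each array. Same-numbered arrays did not deviate together (18 pairs, correlations of -0.18 to 0.17), so no pairing was used.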

Additional observations from a re-analysis of the deposited data

How the results depend on the processing

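Each count and median over the 34 genes was recomputed under 22 alternatives, 12 of which leave out 1 array and 2 of which (a floor filter and arrays scaled to a common SD) were chosen after seeing the data. Averaging clusters per gene gave no alternative, since every measured gene had 1 cluster. In hypoxia DMSO against normoxia DMSO the median of 0.41 became 0.538 without the dimmest 25% of clusters, 0.633 with a filter of log2 6 on 3 arrays or of the floor on 3 arrays, and 0.335 at a common SD. In BFA against hypoxia DMSO it became -0.15 at a common SD. In EHT-1864 against hypoxia DMSO it became -0.416 after quantile normalization, -0.662 with either filter and -0.294 at a common SD. In BFA against EHT-1864 it became 0.228 and 0.27 after quantile normalization and at a common SD, and in BFA against normoxia DMSO 0.415 and 0.414. In EHT-1864 against normoxia DMSO it became 0.12 after quantile normalization, 0.181 with array medians subtracted, 0.0726 with either filter, 0.106 with array weights and 0.25 at a common SD, with 0.0903 to 0.155 when 1 array was left out. The count there, 5 as reported, was 8 without the dimmest clusters, 9 with a trended and robust variance, 11 with array weights, 8 at a common SD and 3 to 7 with 1 array left out. The other totals stayed within 1.5 times of those reported, while some splits into higher and lower moved further. Leaving out 1 array gave 14 to 17, 23 to 26, 17 to 25, 15 to 17 and 18 to 21 calls in the first 5 comparisons.

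Signs turned in 0, 7, 4, 8, 7 and 8 of the 34 genes over the 6 comparisons, called or not. Of genes called as reported or under that alternative, they turned at a common SD in BFA against hypoxia DMSO for Aldoa (0.18), Gapdh (0.35), Mpc1 (0.56) and Dlat (0.077, and 0.017 after quantile normalization), and in BFA against normoxia DMSO for Aldoc (0.19) and Pkm (0.43). The cause was not tested. Calls lost under none of the alternatives that tested the gene were 14 of 16, 15 of 25, 15 of 25, 13 of 17, 16 of 21 and 3 of 5 over the 6 comparisons. Among them, Slc16a7 in the 3 comparisons of BFA and Hkdc1 in BFA against either DMSO group had only 20 alternatives. Filters on dim clusters left these 2 genes out. Over all clusters, the 593 calls of hypoxia DMSO against normoxia DMSO ranged from 254 to 898 with 1 array left out and reached 887 without the dimmest clusters, 1264 and 1247 with the filters, 1221 with a trended and robust variance, 1234 with only the 2 groups compared and 2258 with array weights. In BFA against hypoxia DMSO, 11269 calls became 7215 and 7423 with the filters, which test fewer clusters.

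With a replicate block the counts were 16, 24, 21, 16, 21 and 4 in the same order of comparisons. Of 18 pairs of same-numbered arrays 1 correlated above 0.1, and the labels do not say whether a number marks a shared culture. Signal over background limits the 4 genes below the floor on all 12 arrays, and the higher floor with BFA makes its falls lower bounds for Ldhb, Eno3 and Slc16a3.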
